A study of Mus musculus with 6 samples.

Results

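Small nucleolar RNAs (snoRNAs) are short noncoding RNAs of the nucleolus that guide chemical changes on ribosomal RNA. The snoRNA loci were taken as every row whose gene name starts with Snord or Snora followed by a digit, which gave 42 of the 25939 genes listed. Of these, 27 were C/D loci (Snord) and 15 were H/ACA loci (Snora). The RNA came from cultured smooth muscle cells of the mouse aorta. One group of 3 libraries received trimethylamine N-oxide (TMAO), a metabolite made in the liver from a product of gut bacteria, and the other 3 libraries were Control, both at 48 hours. The sources used here give no strain, sex, age, number of mice or dose of TMAO, and no label names a genetic change. Nothing in the labels says that the 3 libraries of a group came from separate animals or cultures, so a p-value here measures only how these libraries scatter, which may be technical.

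C/D snoRNAs carry the short sequence boxes C and D, bind fibrillarin (Fbl), Nop56, Nop58 and Snu13, and guide methylation of ribose. H/ACA snoRNAs fold into hairpins joined by a hinge box and end in an ACA box, bind dyskerin (Dkc1), Gar1, Nhp2 and Nop10, and guide the change of uridine to pseudouridine. Most vertebrate snoRNAs are cut out of introns of host genes, many of which code for ribosomal proteins or other parts of the translation machinery. Mature snoRNAs have no poly(A) tail, and the library kit named in the labels selects poly(A) RNA. A read over a snoRNA locus in such a library can come from the mature RNA or from unspliced host RNA, and these tables do not separate them.

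The sequences below are those of the locus with the most reads (Snord104), of the loci whose TMAO libraries all lay above the Control libraries (Snord49a, Snord17 and Snora31, which is 3 of 42 or 7.14%, beside 9.12% of all listed genes), and of Snord65, which shares an intron-bearing host with Snord49a. They are GENCODE M21 transcript sequences on mm10, read from the 5′ end. Capitals mark a TGATGA in the first 20 bases (the core of box C) and a CTGA in the last 20 bases (box D) of C/D loci, and an ANANNA near the middle (hinge box) and an ACA in the last 8 bases of the H/ACA locus.
Snord104: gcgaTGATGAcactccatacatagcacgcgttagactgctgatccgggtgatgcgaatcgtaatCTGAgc
Snord49a: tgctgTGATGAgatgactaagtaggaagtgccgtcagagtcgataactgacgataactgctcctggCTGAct
Snord65: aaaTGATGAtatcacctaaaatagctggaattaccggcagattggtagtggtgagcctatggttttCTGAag
Snord17: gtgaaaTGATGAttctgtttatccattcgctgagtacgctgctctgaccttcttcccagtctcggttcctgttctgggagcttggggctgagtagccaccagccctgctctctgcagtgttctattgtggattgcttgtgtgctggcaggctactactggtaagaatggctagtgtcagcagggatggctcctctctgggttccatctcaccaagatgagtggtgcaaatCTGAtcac
Snora31: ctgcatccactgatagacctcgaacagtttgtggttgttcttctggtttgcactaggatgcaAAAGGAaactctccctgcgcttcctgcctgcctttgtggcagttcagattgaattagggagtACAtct

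The classes are named after these boxes, so a difference in boxes between them was given in advance. Searched on the RNA's own strand, TGATGA in the first 20 bases was found in 16 of the 27 listed C/D loci and in 0 of the 15 H/ACA loci, and in 0.4% of 32851 RefSeq promoters over their first 20 bases. CTGA in the last 20 bases was found in 26 of 27 C/D loci, 3 of 15 H/ACA loci and 9.9% of promoter windows. ANANNA was searched from 35% to 65% of the length, and in promoters over the stretch that this gives for an H/ACA locus of median length. It was found in 14 of 15 H/ACA loci, 11 of 27 C/D loci and 43.8% of promoter windows. ACA in the last 8 bases was found in 15 of 15 H/ACA loci, 3 of 27 C/D loci and 7.0% of promoter windows. The search took exact letters only, so a locus without a match may still hold a variant box. C/D loci were 65 to 238 bases long (median 83) and H/ACA loci 128 to 184 bases (median 137). The closest pair among the 41 of 42 loci compared, Snora2b and Snora34, shared 69.6% of bases.

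Of the loci listed, 35 lay wholly within an intron of an annotated gene on the same strand, 2 shared bases with an exon of the host and 5 had no such host in the annotation. Ribosomal protein genes hosted 11 of the 42. GENCODE M21 names 141 loci by the same pattern, and the tables list 27 of 99 Snord (27.3%) and 15 of 42 Snora (35.7%). No row of the tables is at 0 in all 6 libraries. The 72 C/D and 27 H/ACA loci that are not listed had median lengths of 86 and 132 bases, and TGATGA was found in 54 of those 72 C/D loci.

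The levels were very low. Values were deposited as FPKM, which scales reads to the exon length of the gene and to the size of the library, and the FPKM of each locus corresponded to a whole number of reads. All 42 loci together held 814 of 94354430 reads, or 8.63 RPM, the standard scaling of reads to library size. A single read on 100 bases was worth 0.595 to 0.667 FPKM, so most snoRNA values rest on a handful of reads. The median locus held 8 reads over the 6 libraries. Only 3 loci averaged at least 10 reads per library, 22 held fewer than 10 in all and 12 held 1 or 2. A read was present in every library for 13 loci. A count of 0 in a library allows up to 3 reads, which is 2.73 FPKM on the 70 bases of Snord104 and 1.47 FPKM on the 130 bases of Snora31, counting error only.

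**Figure D1:**
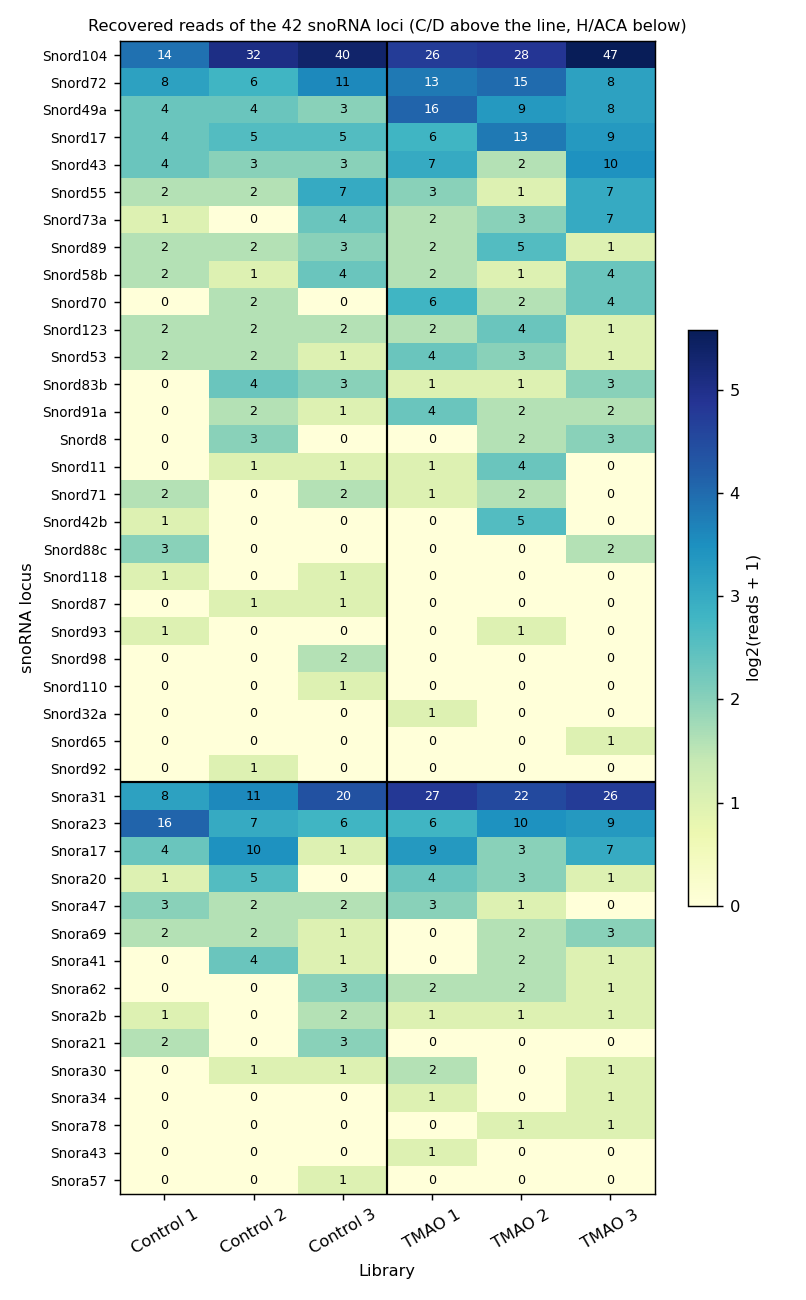
Recovered reads of the 42 snoRNA loci (rows, ordered by total within each class) in the 6 libraries (columns), with the number of reads printed in each cell and its log2(reads + 1) as colour. Snord104 and Snora31 lead their classes, and 12 loci hold only 1 or 2 reads in all.

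A few loci carried most of the signal. Snord104 held 187 of the 539 C/D reads (34.7%) and the 6 C/D loci with the most reads held 71.4%. Snora31 held 114 of the 275 H/ACA reads (41.5%) and the leading 6 H/ACA loci held 86.2%. Neighbours in the same host differed. Snord49a, at chr11:62603450-62603521, held 44 reads, and Snord65, at chr11:62604515-62604586 in the same host transcript 2410006H16Rik, held 1. Snord70 and Snord11, both within Nop58, held 14 and 7 reads, and Snord43 and Snord83b, both within the ribosomal protein gene Rpl3, held 29 and 12.

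The C/D loci as a class had more reads after TMAO, with or without Snord104, the locus with the most reads. C/D loci took 53, 73 and 95 reads in Control 1 to 3 and 97, 103 and 118 reads in TMAO 1 to 3. Scaled to the library this was 3.53, 4.85 and 5.65 RPM in Control and 5.87, 6.46 and 7.87 in TMAO, with no overlap, and means of 4.68 ± 1.07 and 6.73 ± 1.03 (SD, n = 3), a ratio of 1.44. Without Snord104 the values were 2.60, 2.72 and 3.27 RPM against 4.30, 4.70 and 4.74, a ratio of 1.599. Summed over libraries, the 221 and 318 C/D reads gave a rate ratio of 1.42 with an exact 95% interval of 1.19 to 1.70, counting error only. Snord104 alone had a rate ratio of 1.16, below that of the class, so leaving it out had to raise the ratio. Snord49a held 11 reads in Control and 33 in TMAO, and the ratio of the class without it was not computed. It gave 16 of the 97 C/D reads in TMAO 1 and 3 of the 95 in Control 3. In the full class, the place of TMAO 1 above Control 3 therefore rests on Snord49a. No p-value is given for a sum over loci, since the snoRNA loci were picked out with earlier results in view. In bulk RNA, fewer cells of a type and less RNA per cell cannot be told apart.

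The H/ACA loci also had more reads after TMAO, but not when Snora31 was left out. They took 37, 42 and 41 reads in Control and 56, 47 and 52 in TMAO, or 2.46, 2.79 and 2.44 against 3.39, 2.95 and 3.47 RPM, with no overlap. The means were 2.56 ± 0.195 and 3.27 ± 0.281 (SD, n = 3), a ratio of 1.275. The rate ratio of the 120 and 155 reads had an exact 95% interval of 0.999 to 1.63, counting error only. Without Snora31 the ratio was 0.965, with 1.93, 2.06 and 1.25 RPM in Control and 1.76, 1.57 and 1.73 in TMAO, which overlapped. Whether the classes differed in their response was not tested. The loci left out were not alike, since Snord104 had a rate ratio of 1.16 and Snora31 one of 1.90. The ratio of C/D to H/ACA reads was 1.43, 1.74 and 2.32 in Control and 1.73, 2.19 and 2.27 in TMAO, so the groups overlapped.

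**Figure D2:**
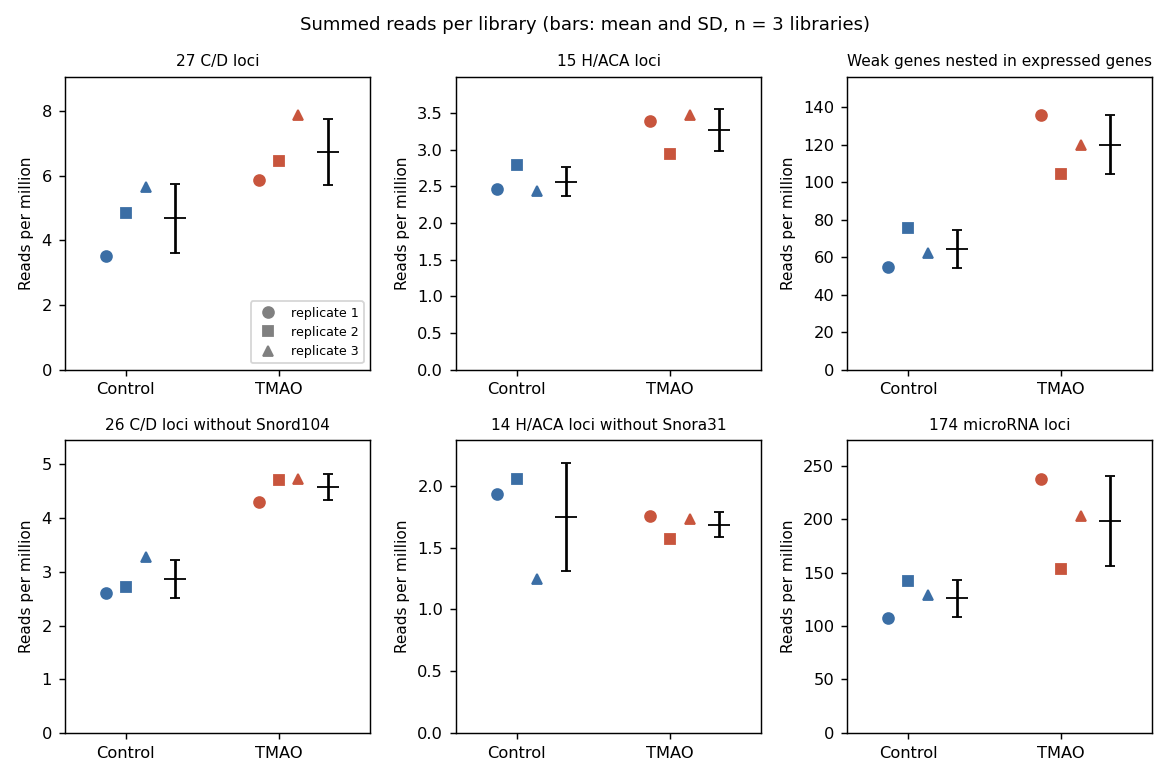
Summed RPM (vertical axes, from 0) in each library of Control and TMAO, for the C/D loci, the H/ACA loci, each class without its leading locus, 634 weak genes nested in expressed genes, and the listed microRNA loci; bars give the mean and SD. TMAO libraries lie above Control libraries in every panel except that of the H/ACA loci without Snora31.

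Reads of weak genes nested in other genes, of microRNA loci and of some nuclear RNAs were also more numerous in the TMAO libraries. A set of 634 weak genes (mean below 1 FPKM) that sit inside a gene of at least 5 FPKM on their own strand, and share no exon bases with any gene, took 54.9, 75.3 and 62.4 RPM in Control and 135.6, 104.4 and 119.9 in TMAO, a ratio of 1.87. The listed microRNA loci, whose hosts were not looked up, had a ratio of 1.57. The nuclear RNA Malat1 had a ratio of 2.03 and Neat1, the RNA of paraspeckles, one of 1.62. Xist, the RNA that coats the inactive X chromosome, stood at 13.5 ± 1.49 FPKM in the Control libraries against 25.7 ± 4.49 FPKM with TMAO (SD, n = 3). Its log2 fold change was 0.87, with an unadjusted p = 0.00031 and 0.0798 after adjustment in limma. The list of nuclear retained RNAs held 5 genes, of which Meg3 and Kcnq1ot1 were below 1 FPKM and not tested. Meg3 stood at 0.398 and 0.342 FPKM and Kcnq1ot1 at 0.152 and 0.171 FPKM in Control and TMAO. Of the 3 tested genes of this nuclear retained list 0 were called by limma. All 3 had an unadjusted p below 0.05, beside 13.1% of all tested genes, and a log2 fold change above 0, with a median of 0.87. The part of such reads in the snoRNA values was not tested. The 4 listed Scarna loci, guide RNAs of Cajal bodies, held 12 reads in each group. Rn7sk, an abundant RNA that also lacks a poly(A) tail, held 10, 22 and 29 reads in Control and 27, 36 and 32 in TMAO.

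No single snoRNA locus passed the test. The comparison used limma on log2(FPKM + 1) over genes that reached 1 FPKM in 3 or more libraries, which left 21 of the 42 loci (16 C/D and 5 H/ACA). At a limma adjusted p of 0.05, 0 of 21 loci were called, where 0.181% of all 11062 tested genes were. At an unadjusted p of 0.05, 4 of 21 passed (19.0%), all higher after TMAO, beside 13.1% of all tested genes in either direction, 8.61% higher and 4.48% lower. Of these loci, Snord70 entered the test through its TMAO libraries, with 0, 1.53 and 0 FPKM in Control and 4.17, 1.44 and 3.07 in TMAO. Its place in this count is therefore not independent of its direction. With voom, which models the recovered reads, 0 of 21 were called, beside 0.79% of all genes. An unadjusted p below 0.05 in voom was found at 3 of the 21, beside 1539 of the 10888 genes it tested. The count of 0 became 1 without Control replicate 3 (Snora31, limma's adjusted p = 0.0377) and 1 without TMAO replicate 1 (Snord17, limma's adjusted p = 0.0428). Since a locus could enter the test through the group in which it was higher, directions are given over all loci listed. Of these, 16 of 27 C/D and 9 of 15 H/ACA loci had a log2 fold change above 0, together 59.5%, and 60.4% of all listed genes did. Among the tested the numbers were 15 of 21 loci and 60.0% of genes. The median log2 fold change was 0.26 for C/D loci, 0.14 for H/ACA loci and 0.02 for all listed genes. These class medians rest on very few reads. The C/D median is the value of a locus with 0 reads in Control and 1 in TMAO. The H/ACA median is that of a locus with 2 reads in Control and 3 in TMAO. The order of the classes depended on the setting: with a pseudocount of 0.1 the medians were 0.37 for C/D and 0.55 for H/ACA loci. Separated libraries, with all TMAO above all Control, were found at 3 of 42 loci (7.14%) and at 9.12% of all listed genes, and the reverse at 0 loci and 3.82% of genes. Among the tested, separation upward was found at 3 of 21 loci and 12.4% of genes, and downward at 0 loci and 6.23% of genes.

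Snord49a had the smallest p of the loci. It stood at 3.70, 3.69 and 2.48 FPKM in Control (4, 4 and 3 reads) and at 13.4, 7.84 and 7.41 FPKM in TMAO (16, 9 and 8 reads). The TMAO libraries all lay above the Control libraries, and TMAO 1 was the highest. The log2 fold change was 1.27 ± 0.256 (SE) with an unadjusted p = 0.00386 and a limma adjusted p = 0.168. The rate ratio, TMAO to Control, of the 33 and 11 reads was 2.96, with an exact 95% interval of 1.46 to 6.50, counting error only. Its host, the noncoding transcript 2410006H16Rik on chromosome 11, stood at 246 ± 8.43 and 267 ± 4.46 FPKM (SD, n = 3; log2 fold change 0.11, limma's adjusted p = 0.287).

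Snora31 lies at chr14:75847905-75848034 in an intron of Tpt1, which codes for the translationally controlled tumour protein. It stood at 4.10, 5.62 and 9.15 FPKM in Control (8, 11 and 20 reads) and at 12.6, 10.6 and 13.3 FPKM in TMAO (27, 22 and 26 reads). The groups did not overlap, and Control 3 was nearest to the TMAO libraries. The log2 fold change was 0.91 ± 0.279 with limma's adjusted p = 0.303. The 75 and 39 reads gave a rate ratio of 1.90 with an exact 95% interval of 1.27 to 2.87, counting error only. Tpt1 itself stood at 2050 ± 79.3 and 2019 ± 108 FPKM (SD, n = 3; log2 fold change -0.02, limma's adjusted p = 0.895), so the locus was at 0.454% of the FPKM of its host.

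Snord17, the longest of the C/D loci, lies at chr2:144265979-144266216 on the minus strand in an intron of Snx5, a sorting nexin gene. It stood at 1.12, 1.39 and 1.25 FPKM in Control (4, 5 and 5 reads) and at 1.53, 3.42 and 2.52 FPKM in TMAO (6, 13 and 9 reads). The groups did not overlap, but TMAO 1 and Control 2 were 1 read apart. The log2 fold change was 0.60 ± 0.192 with limma's adjusted p = 0.272. The level of Snx5 was 59.97 and 60.58 FPKM, a log2 fold change of 0.01 (limma's adjusted p = 0.933).

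Snord70 (chr1:59691934-59692020), within Nop58, held 0, 2 and 0 reads in Control and 6, 2 and 4 in TMAO. Its 12 and 2 reads gave a rate ratio of 5.93 with an exact 95% interval of 1.32 to 54.5, counting error only, so its size is poorly known. Control 2 and TMAO 2 held the same number of reads. The log2 fold change was 1.45 ± 0.521 (limma's adjusted p = 0.367), while that of Nop58, the C/D core protein gene, was -0.11 (limma's adjusted p = 0.446). Snord91a, within the ribosome maturation gene Tsr1, held 0, 2 and 1 reads in Control and 4, 2 and 2 in TMAO (log2 fold change 0.79, limma's adjusted p = 0.468).

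**Figure D3:**
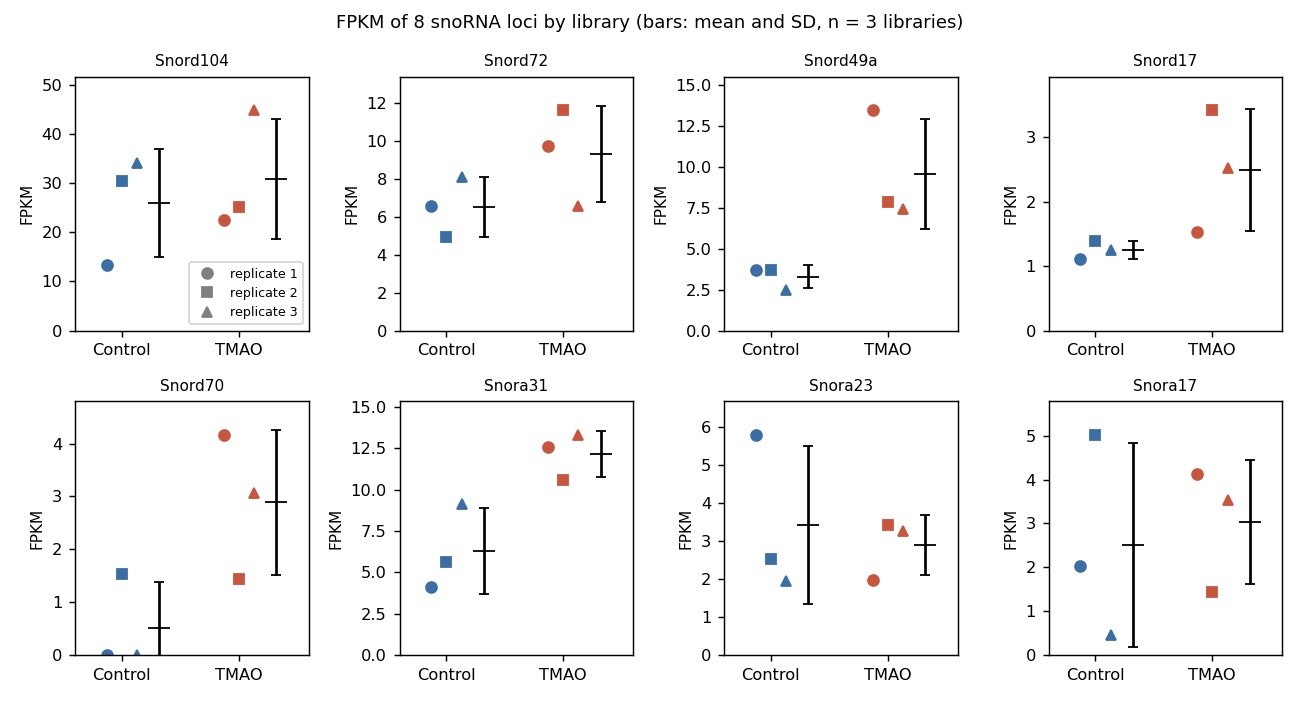
FPKM (vertical axes, from 0) of 8 snoRNA loci in each library, with marker shapes for the replicate number and bars for the mean and SD (the lower bar of Snord70 in Control is cut at 0). Snord49a, Snord17 and Snora31 have all TMAO libraries above all Control libraries, and the other 5 loci overlap.

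The best measured locus, Snord104 (chr11:106500993-106501062, plus strand, with no annotated host), did not separate the groups. It stood at 13.3, 30.3 and 34.0 FPKM in Control (14, 32 and 40 reads) and at 22.5, 25.1 and 44.8 FPKM in TMAO (26, 28 and 47 reads). Control 1 was low and TMAO 3 high, with the other 4 libraries between them. The log2 fold change was 0.28 ± 0.489 (limma's adjusted p = 0.868), and it was -0.12 without Control replicate 1 and -0.02 without TMAO replicate 3. The rate ratio of the 101 and 86 reads had an exact 95% interval of 0.862 to 1.56, counting error only.

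The remaining loci with many reads overlapped between groups. Snord72 (chr15:5118404-5118484), within the ribosomal protein gene Rpl37, held 8, 6 and 11 reads in Control and 13, 15 and 8 in TMAO (log2 fold change 0.44 ± 0.252, limma's adjusted p = 0.543). Snord43, which the annotation types as a microRNA gene, held 4, 3 and 3 reads in Control and 7, 2 and 10 in TMAO (0.52, limma's adjusted p = 0.741).

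Among the H/ACA loci, Snora23 (chr7:110046364-110046547), within the nuclear import receptor gene Ipo7, held 16, 7 and 6 reads in Control and 6, 10 and 9 in TMAO. Control 1 stood apart, and the log2 fold change of -0.11 (limma's adjusted p = 0.938) became 0.25 without it. Snora17 held 4, 10 and 1 reads in Control and 9, 3 and 7 in TMAO, so that the Control range held every TMAO value (0.37, limma's adjusted p = 0.873). Snora20, within the chaperonin gene Tcp1, held 6 and 8 reads in all (0.33, limma's adjusted p = 0.869). Snora69, within Rpl39, held 5 in each group (-0.09, limma's adjusted p = 0.955). Snora47, within Zbed3, held 7 and 4 reads and did not reach the filter.

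No tested locus was lower beyond its error. Of the 6 with a log2 fold change below 0, Snord71 within the adaptor gene Ap1g1 had the lowest, -0.18 ± 0.549, on 4 and 3 reads (limma's adjusted p = 0.929). Snord83b had -0.12 on 7 and 5 reads (limma's adjusted p = 0.961). Reads were seen only in Control libraries at 7 loci and only in TMAO libraries at 5. The former include Snora21, with 2, 0 and 3 reads, and Snord118, the U8 snoRNA needed to process the large ribosomal RNAs, with 1, 0 and 1. A count of 0 over a group allows up to 3 reads, so no fold change is given for these loci one by one. The directions and medians over all listed loci include them.

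The host genes differed little. The 36 loci with a listed host had 31 distinct hosts, of which 29 were tested and 0 were called. An unadjusted p below 0.05 in limma was found at 3 of the 29 hosts, beside 13.1% of all tested genes. The log2 fold changes of the tested hosts ran from -0.11 to 0.17, with a median of 0.05, 20 above 0 and 9 below. Of the 18 tested loci with a tested host, 11 had a log2 fold change above that of the host. The FPKM of a locus was a median of 2.02% of that of its host, and was higher than the host at 2 loci, Snord89 and Snora30, whose annotated hosts Gm15832 and Srcap were themselves below 1 FPKM.

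**Figure D4:**
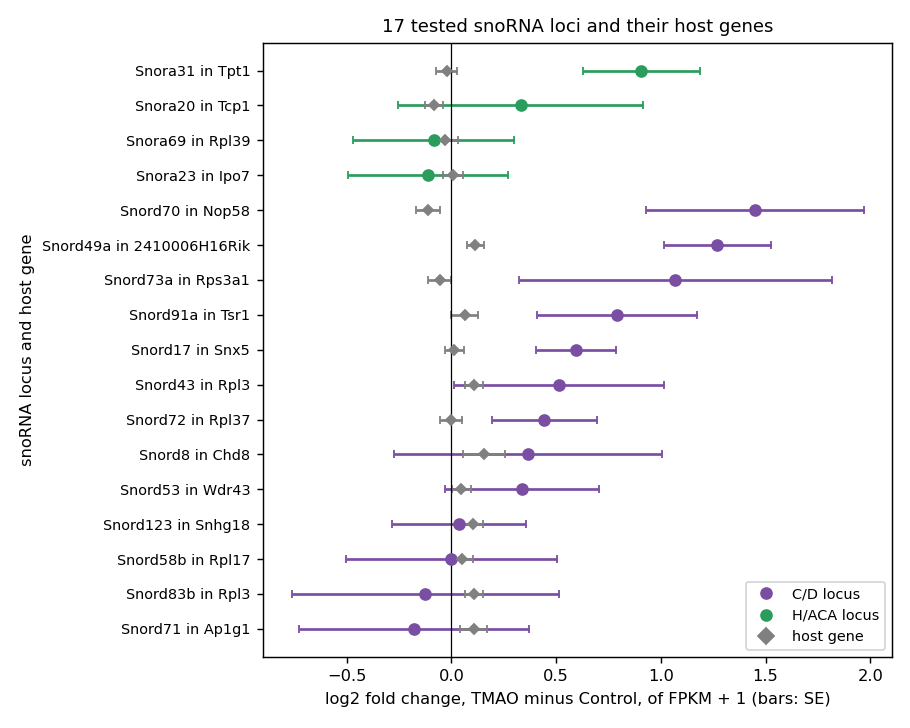
Log2 fold change (horizontal axis, TMAO minus Control, of FPKM + 1) of the tested snoRNA loci that have a tested host gene (1 of the 18 is not drawn), with the host beside each locus as a grey diamond and bars for the SE. Hosts sit close to 0, between -0.11 and 0.15, whereas the loci spread from -0.18 to 1.45 with wide errors.

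The genes of the snoRNA machinery were expressed and none was called. An unadjusted p below 0.05 in limma was found at 1 of 4 C/D core genes and 2 of 4 H/ACA core genes, beside 13.1% of all tested genes. Of the C/D core proteins, the methyltransferase Fbl stood at 13.1 ± 0.0861 and 13.4 ± 0.223 FPKM (SD, n = 3) in Control and TMAO, with a log2 fold change of 0.04. The scaffold genes Nop56 and Nop58 had 0.12 and -0.11, and Snu13, which binds the box motif, had 0.02. Their adjusted p-values were 0.817, 0.368, 0.446 and 0.895 in limma. Of the H/ACA core, the pseudouridine synthase Dkc1 stood at 13.98 ± 0.243 and 12.7 ± 0.682 FPKM (-0.13, limma's adjusted p = 0.372) and Gar1 at 8.25 ± 0.806 and 10.2 ± 1.42 FPKM (0.28, limma's adjusted p = 0.275). Nhp2 and Nop10 had 0.02 and -0.06 (limma's adjusted p = 0.871 and 0.611).

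The wider lists were likewise without a call, where 0.0723% of all tested genes were called higher and 0.108% lower. Counting the core genes, 0 of 67 tested genes were called by limma, and voom called 0 of 61. In limma 10 of the 67 had an unadjusted p below 0.05, beside 13.1% of all tested genes. Among 12 tested assembly factors 0 were called higher and 0 lower, with a median log2 fold change of 0.01, 7 above 0 and 5 below. The box C/D assembly factor gene Znhit3 had -0.17 (limma's adjusted p = 0.327), Znhit6 had -0.08 (0.453) and the Cajal body gene Coil 0.14 (0.599). Among 20 genes of the U3 complex and early ribosomal RNA processing 0 were called higher and 0 lower. Their median was 0.06, with 15 above 0 and 5 below. The nucleolar chaperone Npm1 stood at 520 ± 14.8 and 467 ± 12.3 FPKM (-0.16, limma's adjusted p = 0.168), Mphosph10 had -0.15 (0.294) and Heatr1 0.14 (0.425). Among 12 tested genes of RNA polymerase I, which transcribes ribosomal RNA, 0 were called higher and 0 lower. The median of these genes was 0.05, with 9 above 0 and 3 below. The polymerase I promoter factor gene Taf1a stood at 2.11 ± 0.247 and 3.04 ± 0.0232 FPKM (0.38, limma's adjusted p = 0.104), and Polr1b and Polr1c had 0.12 and 0.05 (0.703 and 0.728). Among 15 tested noncoding host genes 0 were called higher and 0 lower, with a median of 0.08, 12 above 0 and 3 below. Snhg17 had 0.35 (limma's adjusted p = 0.245), Snhg5 0.14 (0.372) and Snhg12 0.14 (0.373), and Gas5 stood at 58.5 and 60.1 FPKM (0.04, 0.781).

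The libraries held 14991252 to 16806728 reads, as implied by the FPKM values, and every pair of libraries within a group differed by more than counting noise. Of 8 smooth muscle markers, Acta2 stood at 487 ± 2.79 and 483 ± 8.68 FPKM (SD, n = 3), Myl9 at 99.1 and 94.7 FPKM and Smtn at 4.39 and 4.54 FPKM. Lmod1 stood at 2.22 and 1.97 FPKM and Des at 1.11 and 1.53 FPKM, while Tagln, Cnn1 and Myh11 were below 1 FPKM in every library. Of the 5 tested, 0 were called by limma and 1 (Des) had an unadjusted p below 0.05, beside 13.1% of all tested genes. The summed level of 5 endothelial markers was 0.328 to 0.584 FPKM. Of 5 macrophage markers, Lyz2 stood at 77.0 and 70.0 FPKM, Cd68 at 4.17 and 4.28 FPKM and Ptprc at 0.0399 and 0.0401 FPKM. The 6 fibroblast markers summed to 232 to 264 FPKM in Control and 211 to 229 FPKM in TMAO, most of it Col1a1 (185.0 and 163 FPKM). Pdgfra stood at 26.5 and 23.8 FPKM and Lum at 4.40 and 3.72 FPKM. The other markers of this list went the other way. Dcn stood at 20.3 and 21.1 FPKM, Dpt at 6.94 and 7.29 FPKM and Pi16 at 0.102 and 0.158 FPKM. Of the 5 fibroblast markers tested 0 were called by limma and 2 had an unadjusted p below 0.05, beside the same 13.1% of all tested genes. The part of these markers in the snoRNA values was not tested.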

How the data were processed

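The authors deposited 1 table per library with FPKM values per gene, per the file headers. Control 1 is headed PKM, but its values have the same read steps as the rest. Per the submitters' processing notes, Trimmomatic, HISAT2, Cufflinks and HTSeq were used with mm10. The sources used here do not give the annotation release, the strand setting or the treatment of reads that reach past a short locus or fit several loci. These settings bear directly on loci shorter than a sequenced fragment.

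Reads were recovered from FPKM with exon lengths of GENCODE M21 (mm10) and 1 total per library. Of 25885 annotated genes 98.5% came out whole to within 0.01 reads, all 42 snoRNA loci among them. Groups come from the titles. Genes that reached 1 FPKM in 3 or more libraries were tested with limma 3.58.1 in R 4.3.3 (trended, robust variance, pseudocount 1, Benjamini-Hochberg over 11062 genes). The fit was checked on simulated data. Changes were planted there only in genes with more reads than any snoRNA locus, so the check does not cover these loci. Intervals are exact, conditional on the pooled reads, and hold counting error only. Libraries of a group scattered by more than counting noise, so the intervals are too narrow for that scatter. Hosts are same-strand genes that span a locus, the most expressed where several do. Named loci are those called, the 6 of each class with the most reads, and the 5 smallest p-values in each direction. The reads of 1 named locus and its host gene are not reported here. From each gene list up to 3 tested genes with the smallest p-values are named, and all genes of the core protein lists. Gas5, Smtn, Ptprc, Dcn, Dpt, Pi16, Meg3 and Kcnq1ot1 were chosen after their values were seen. The same holds for Snord118, Snora21, Snord65, Snord11, Snord89, Snora30, Snora2b and Snora34. The loci and lists were chosen with earlier results of these data known. Tables were joined in Python 3.11.15 with pandas 2.3.3.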

Additional observations from a re-analysis of the deposited data

How the results depend on the processing

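Depth limits these values: 39 of the 42 snoRNA loci averaged under 10 reads per library, so a change at most of these loci was not detectable at this depth unless large. The count of 20 genes called over the whole table became 0 with no filter (limma, with 1999 genes at an unadjusted p below 0.05), 86 with voom and 11 to 58 when each library was left out. The 0 snoRNA loci called became 1 with the replicate block (Snord49a, limma's adjusted p = 0.0289) and 0 to 1 with each library left out. Same-numbered libraries showed no shared deviation, with correlations of -0.09, -0.10 and 0.06 after removing group means. With 3 libraries per group these values cannot exclude a weak pairing. The block left 22 genes called over the whole table. The C/D ratio of 1.44 stayed within 1.28 and 1.61 with each library left out, and was 1.24 over the 2 loci with at least 10 reads on average. The H/ACA ratio became 1.935 with Snora31 alone (at least 10 reads on average) and 0.965 without it, an alternative chosen after seeing the data, and 1.24 to 1.34 with each library left out. The median of the H/ACA loci, 0.14, became 0.0811 with quantile normalization, 0.55 with a pseudocount of 0.1, 0.91 with at least 10 reads, 0.0254 without loci sharing exon bases, 0.10 without Snora31, and 0 to 0.25 with each library left out. That of the C/D loci, 0.26, was 0.37 with a pseudocount of 0.1, 0.36 with at least 10 reads, 0.15 without loci sharing exon bases or without Snord104, and 0.10 to 0.27 with each library left out. The H/ACA median was the higher with the pseudocount of 0.1, with at least 10 reads, without Control replicate 1 (0.17 against 0.12) and without TMAO replicate 2 (0.25 against 0.23). The median of the hosts became 0.00906 with median-ratio size factors and 0.03 to 0.06 with each library left out. Leaving out a library turned the sign of Snora17 (-0.15 to 0.87), Snora20 (-0.0778 to 0.60), Snora23 (-0.36 to 0.25), Snora69 (-0.24 to 0.30), Snord104 (-0.12 to 0.52), Snord55 (-0.55 to 0.42), Snord71 (-0.62 to 0.17) and Snord83b (-0.70 to 0.03445, and 0.37 with a pseudocount of 0.1). The causes were not tested.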
